A study of Mus musculus with 18 samples.

Results

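The Cyp3a genes encode cytochrome P450 enzymes, and 7 of them (Cyp3a11, Cyp3a13, Cyp3a16, Cyp3a25, Cyp3a41a, Cyp3a44 and Cyp3a59) were followed here across young and old mouse liver on 2 diets. They were found by their symbols among 24537 symbols listed in both deposited count tables, and this set was chosen by values measured in these same libraries. Which values is not stated, and they were taken to be the differences between high-fat diet (HFD) and normal diet (ND). The diet values of these genes are therefore given as a description, without a test. The tables held 2 further Cyp3a symbols, Cyp3a41b and Cyp3a57, which are given where they bear on a member. Poly(A) RNA was sequenced from whole liver of male C57BL6 mice labelled young or old, after 9 weeks on ND (Teklad 2018) or HFD (58Y1). The study's methods name a different normal diet, 58Y2 of the same maker as the HFD, so whether the diet differences are against a chow or a matched purified diet is unsettled. The groups held 4 young ND, 5 old ND, 5 young HFD and 4 old HFD libraries. The labels do not say that each library came from a separate mouse, so the p-values measure only the spread between these libraries. The group sizes listed in the study's supplement match the numbers of libraries.

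Cyp3a enzymes sit in the endoplasmic reticulum of hepatocytes, where they oxidise drugs, steroids and bile acids with electrons from the P450 reductase Por. Transcription of the major mouse form, Cyp3a11, is switched on by the xenobiotic sensor PXR (gene Nr1i2) and by its relative CAR (gene Nr1i3), and it is often read as the mouse counterpart of human CYP3A4. Cyp3a41a and Cyp3a44 are known as forms of the female liver, and Cyp3a16 as a form of the fetal and newborn liver. Cyp3a13 is also made in the intestine, and Cyp3a25 is a second abundant form of adult liver.

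Total counts were 20253719 to 36427856 per library, so the abundant members rest on many counts and the rare ones on a handful. The 2 diets lie in 2 tables, and the HFD table was counted without a strand option while the ND table was counted on 1 strand. Diet and table thus cannot be told apart, whereas young and old on the same diet share a table. None of the Cyp3a genes has an annotated exon on the opposite strand. The summed CPM (counts relative to the library total, after TMM scaling) of the 6 listed hepatocyte markers present in both tables, Alb and Apob among them, was 75781 to 87164 in young ND, 92554 to 121890 in old ND, 80792 to 106001 in young HFD and 64941 to 85537 in old HFD. These sums were higher in each old ND library than in any young ND or old HFD library, and their part in the results below was not tested. Old HFD replicate 4 stood apart: its summed neutrophil markers reached 195 CPM, against 0.941 to 9.34 CPM in the ND libraries and 1.26 to 5.23 CPM in young HFD, and 3.07 CPM in the lowest old HFD library. Its cholangiocyte markers reached 246 CPM, against a median of 117 CPM in old HFD and at most 60.4 CPM in the other groups. Replicate 4 was thus not the only old HFD library raised in these, while the lowest old HFD library had 47.7 CPM. Old ND replicate 5 also lay apart from its group, at a chi-square per gene of 81.5 to 118 from the other old ND libraries, against 25.0 to 45.6 among those. Values of members that rest on old HFD replicate 4 are given with and without it, whereas counts of called list genes and markers come from all libraries. The part of neutrophils and cholangiocytes in these results was not tested. In whole liver, fewer cells of a type and less RNA per cell cannot be told apart.

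The members lie on mouse chromosome 5 (mm10, the same assembly as GRCm38) in a main cluster, with Cyp3a13 apart from it. Cyp3a11 spans chr5:145854607-145879854, Cyp3a25 chr5:145977194-146009617, Cyp3a44 chr5:145773983-145805874 and Cyp3a16 chr5:145436309-145469723, all on the minus strand. Cyp3a59 spans chr5:146079258-146113283 on the plus strand, and Cyp3a13 spans chr5:137892933-137921619 on the minus strand. Cyp3a41a was placed at chr5:145694049-145720136 in the ND table and at chr5:145558664-145584730 in the HFD table, where it coincides with Cyp3a41b. Each row holds the exonic reads counted for a RefSeq entry of the gene, listed with its own exonic length.

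How far their reads can be told apart follows from their sequence, so a stretch of 60 coding bases (coding bases 534 to 593, GENCODE M21 transcripts) is printed for each member, 5′ to 3′. Capitals mark the bases that differ from Cyp3a11.
Cyp3a11: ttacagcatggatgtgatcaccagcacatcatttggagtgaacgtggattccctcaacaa
Cyp3a44: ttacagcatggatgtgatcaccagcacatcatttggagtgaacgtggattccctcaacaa
Cyp3a41a: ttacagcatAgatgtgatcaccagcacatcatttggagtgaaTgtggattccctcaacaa
Cyp3a16: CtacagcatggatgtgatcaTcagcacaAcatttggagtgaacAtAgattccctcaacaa
Cyp3a25: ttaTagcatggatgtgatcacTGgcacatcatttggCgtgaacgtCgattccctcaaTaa
Cyp3a59: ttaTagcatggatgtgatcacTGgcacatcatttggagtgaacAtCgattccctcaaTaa
Cyp3a13: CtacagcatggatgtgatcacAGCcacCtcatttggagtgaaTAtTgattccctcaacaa

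The stretch was taken from the longest coding run identical between Cyp3a11 and Cyp3a44, so the 0 differences of Cyp3a44 follow from that choice. Across it Cyp3a41a carried 2 differences from Cyp3a11, Cyp3a16 5, Cyp3a25 and Cyp3a59 6 each and Cyp3a13 8. Over the whole coding sequence 2 groups stood out. Cyp3a44, Cyp3a41a and Cyp3a16 were 94.9%, 95.2% and 92.8% identical to Cyp3a11, and Cyp3a59 was 97.5% identical to Cyp3a25. Cyp3a13 was 74.5% to 76.5% identical to every other form. Counted as words of 31 bases along the GENCODE transcript matched to each gene's RefSeq entry, 33.8% of Cyp3a11, 48.4% of Cyp3a44, 27.3% of Cyp3a16 and 99.9% of Cyp3a41a recurred in another Cyp3a gene. For Cyp3a25 the share was 47.2%, for Cyp3a59 48.9% and for Cyp3a13 0.171%. The longest run common to Cyp3a11 and Cyp3a44 was 104 bases, and that common to Cyp3a25 and Cyp3a59 was 162 bases. Levels of the rarer form in each group are uncertain for this reason, and Cyp3a13 is the member least exposed to it.

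**Figure D1:**
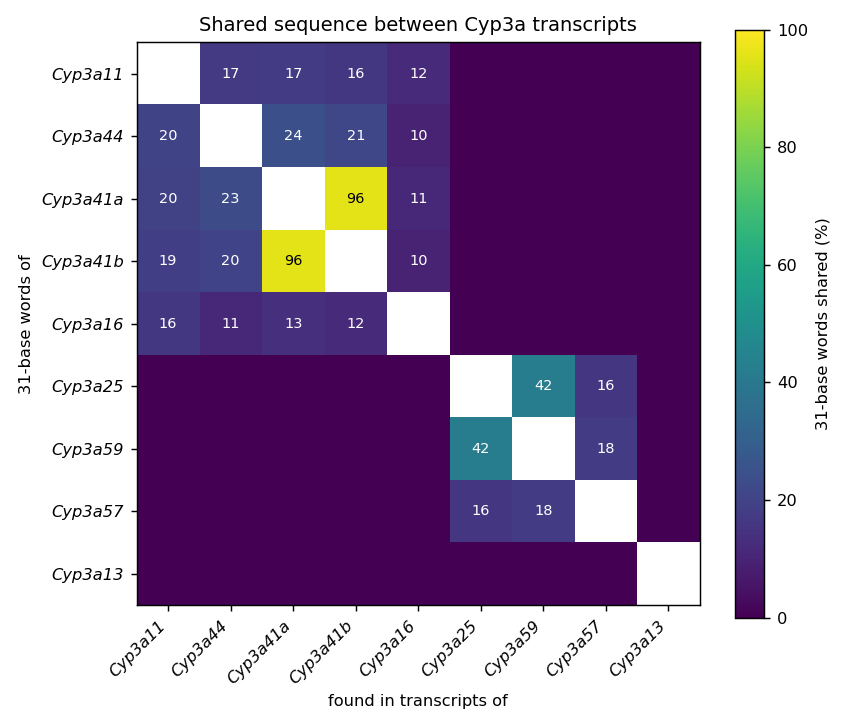
Percent of the 31-base words of each Cyp3a gene (rows) that also occur in the transcripts of another (columns), with the diagonal left blank. Cyp3a11, Cyp3a44, Cyp3a41a, Cyp3a41b and Cyp3a16 share words among themselves, Cyp3a25, Cyp3a59 and Cyp3a57 do so among themselves, and Cyp3a13 shares 0.171% with all others together.

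Cyp3a11, the major drug- and steroid-oxidising form, was the most abundant member on ND. Its level in CPM was 1974, 1853, 2129 and 1942 in the 4 young ND libraries and 1828, 3112, 2218, 3096 and 3578 in the 5 old ND libraries. It was 477, 343, 373, 497 and 237 CPM in young HFD and 212, 237, 870 and 30.98 CPM in old HFD. Each HFD library lay below each ND library, and the old HFD libraries spread over a 28.1-fold range. The mean was 5.12-fold lower on HFD in young liver (385 ± 106 CPM, SD, n = 5, against 1974 ± 115, n = 4). In old liver it was 8.19-fold lower (338 ± 367 CPM, n = 4, against 2766 ± 719, n = 5). The fitted log2 differences were -2.36 (SE 0.57) in young and -3.03 (SE 0.62) in old liver. In old liver the difference was -2.63 without old HFD replicate 4 and -4.10 without old HFD replicate 3, the library with the highest Cyp3a11 of the HFD groups, when the mean was 17.3-fold lower on HFD.

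Cyp3a25, the second abundant form, followed the same order with smaller steps. Its CPM was 615, 561, 719 and 488 in young ND, and 649, 864, 577, 769 and 1091 in old ND. On HFD it was 412, 432, 337, 396 and 384 CPM in young liver, and 396, 451, 285 and 177 CPM in old liver. No HFD library reached the lowest ND library of its age. The mean was 1.52-fold lower on HFD in young liver (392 ± 35.7 CPM, SD, n = 5, against 596 ± 97.1, n = 4), a fitted log2 difference of -0.60 (SE 0.22). In old liver it was 2.41-fold lower (327 ± 122 CPM, n = 4, against 790 ± 201, n = 5), a log2 difference of -1.27 (SE 0.23), or -1.05 without old HFD replicate 4.

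Cyp3a13, the form with the fewest 31-base words in common with the others, did not separate the diets. It measured 166, 184, 204 and 164 CPM in young ND, and 189, 177, 180, 180 and 269 CPM in old ND. It measured 123, 146, 133, 170 and 231 CPM in young HFD, and 216, 251, 139 and 398 CPM in old HFD. All 4 groups overlapped. The fitted log2 diet difference was -0.16 (SE 0.24) in young liver and 0.33 (SE 0.23) in old liver, the latter 0.04 without old HFD replicate 4, which held the highest Cyp3a13 of all 18 libraries and the lowest Cyp3a11. In young liver the ratio of mean CPM on HFD to ND was 0.896. It was 0.798 without young HFD replicate 5 and 0.949 without young HFD replicate 1.

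**Figure D2:**
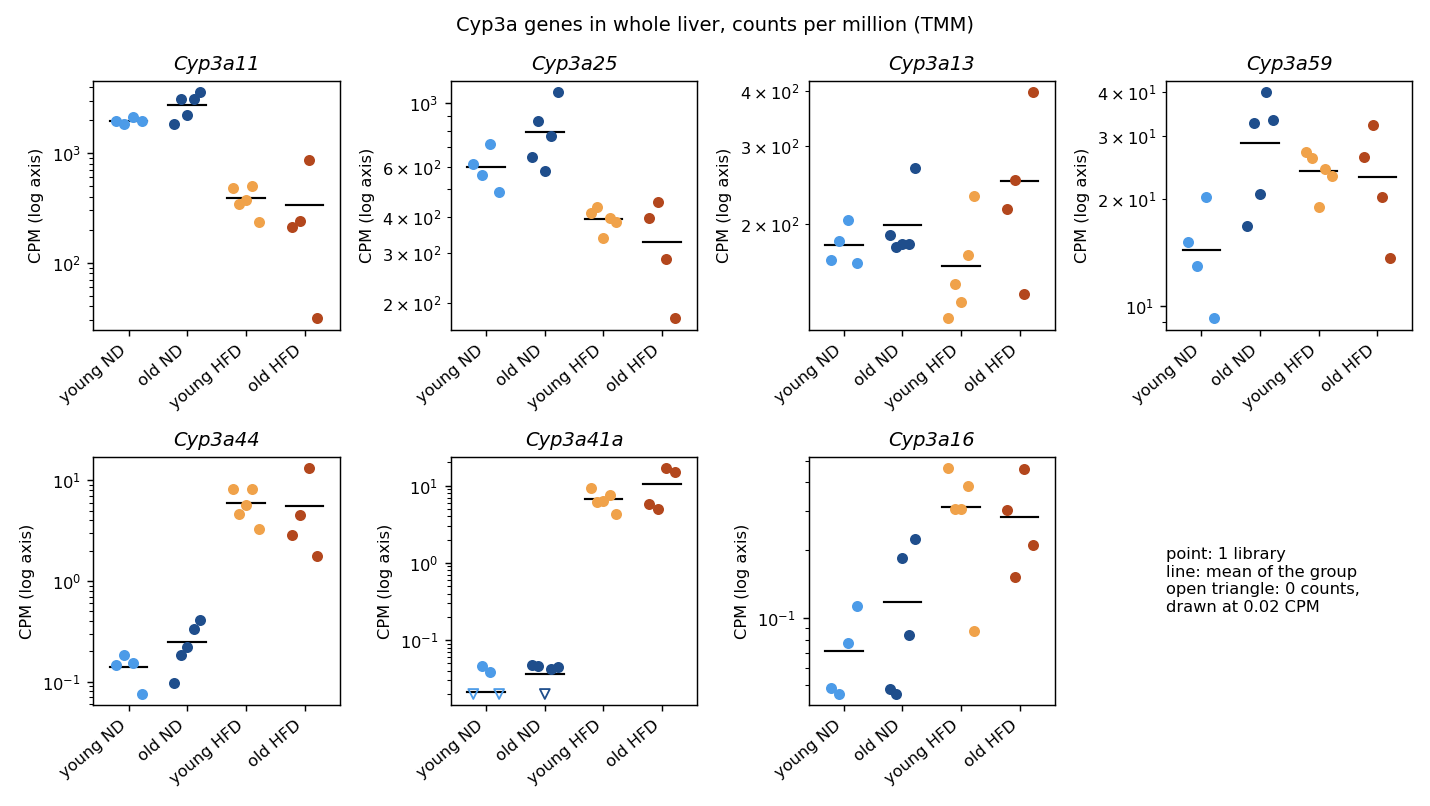
Level of each member in CPM (log axis) in the 4 groups, 1 point per library, with a line at the group mean and open triangles for libraries with 0 counts. Cyp3a11 and Cyp3a25 lie lower in each HFD library than in any ND library of the same age, Cyp3a13 overlaps between all groups, and Cyp3a44 and Cyp3a41a lie near 0 on ND and between 1.77 and 16.9 CPM on HFD.

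Cyp3a59 lies beside Cyp3a25 and is its closest relative by sequence. It measured 15.1, 13.0, 20.3 and 9.22 CPM in young ND, and 16.7, 32.8, 20.7, 39.8 and 33.3 CPM in old ND. It measured 27.1, 26.02, 19.0, 24.2 and 23.1 CPM in young HFD, and 26.2, 32.2, 20.2 and 13.7 CPM in old HFD. The diet groups overlapped at both ages, with log2 differences of 0.73 (SE 0.28) in young and -0.31 (SE 0.27) in old liver, the latter -0.11 without old HFD replicate 4. In old liver the ratio of mean CPM on HFD to ND was 0.805. It was 0.699 without old HFD replicate 2 and 0.892 without old ND replicate 4. Per 100 counts of Cyp3a25 Cyp3a59 had 1.89 to 5.18 counts on ND and 5.62 to 7.73 on HFD. These ranges did not overlap, and the HFD ratio kept within narrow bounds while Cyp3a25 itself ran from 177 to 451 CPM.

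Cyp3a44 and Cyp3a41a, the forms known from female liver, were near 0 on ND in these male livers. Cyp3a44 had 3, 4, 4 and 2 counts in young ND, and 2, 4, 6, 8 and 9 in old ND. On HFD it had 302, 106, 150, 213 and 112 counts in young liver, and 85, 118, 434 and 42 in old liver. No ND library came near the HFD libraries, and the mean CPM was 43.0-fold higher on HFD in young and 22.5-fold higher in old liver, ratios that rest on the few ND counts. Without old HFD replicate 3 the ratio in old liver was 12.2. Cyp3a41a had 0, 1, 1 and 0 counts in young ND, and 1, 1, 0, 1 and 1 in old ND. It had 339, 143, 164, 198 and 146 counts in young HFD, and 171, 129, 554 and 357 in old HFD. No fold is given for Cyp3a41a, whose HFD row carries the coordinates of Cyp3a41b. Cyp3a41b itself had 0 or 1 counts on ND and 104 to 469 on HFD, and Cyp3a57 had 0 to 2 and 20 to 117. Cyp3a16, the fetal form, had 1 to 5 counts per ND library and 3 to 17 per HFD library, and did not pass the low-count filter.

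The counts of the rare forms were set against those of Cyp3a11 in the same library. Per 100 Cyp3a11 counts, Cyp3a44 had 0.00388 to 0.0113 counts on ND and 1.34 to 1.90 in the 8 HFD libraries other than old HFD replicate 4, where it had 5.71. Over those 8 libraries Cyp3a11 itself ran from 212 to 870 CPM. Cyp3a41a had 1.54 to 2.69 counts per 100 of Cyp3a11 in the same 8 HFD libraries and 48.6 in old HFD replicate 4. Both ratios kept within these bounds in the 8 libraries and lay above them in old HFD replicate 4. The step from at most 10 counts in each ND library to at least 20 in each HFD library was found for 263 of 24537 symbols, and for 13 in the opposite direction. It was found for 4 of the 9 Cyp3a symbols (Cyp3a41a, Cyp3a41b, Cyp3a44 and Cyp3a57). For these genes a difference of diet and a difference between the tables cannot be told apart.

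**Figure D3:**
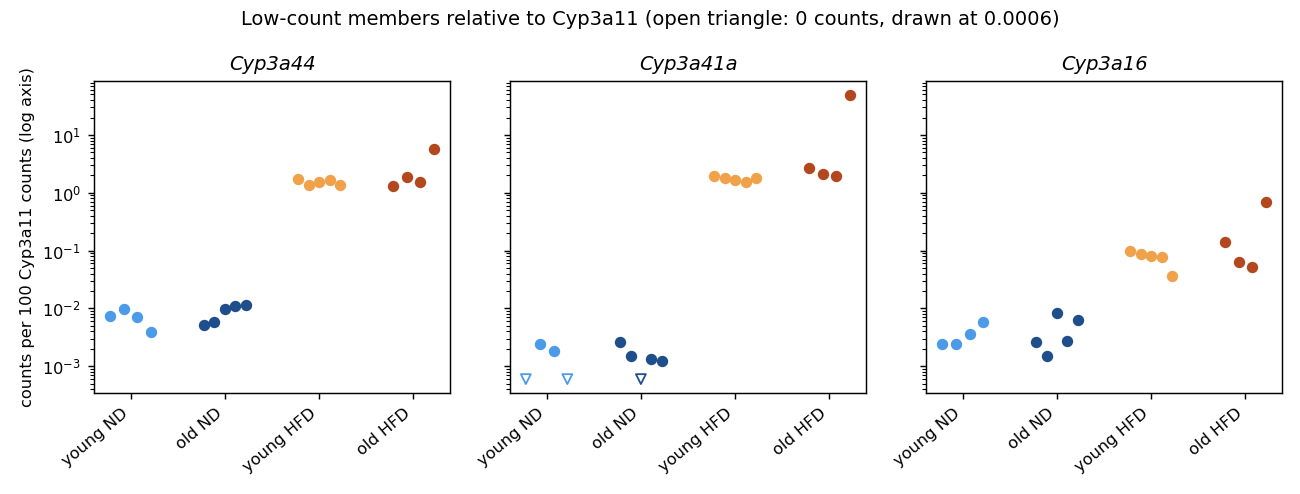
Counts of Cyp3a44, Cyp3a41a and Cyp3a16 per 100 counts of Cyp3a11 in the same library (log axis), 1 point per library and open triangles for 0 counts. In the HFD libraries other than old HFD replicate 4 the Cyp3a44 ratio keeps between 1.34 and 1.90, and in the ND libraries it is at most 0.0113.

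Among the 7 members, 2 lay lower on HFD with no overlap between the groups (Cyp3a11 and Cyp3a25) and 2 lay higher with no overlap (Cyp3a41a and Cyp3a44), the same 2 and 2 at both ages. By the same criterion, 11.4% of the 14275 genes tested lay lower and 16.6% higher in young liver, and 8.06% and 13.5% in old liver. Of these genes edgeR called 6.29% lower and 13.8% higher on HFD in young liver, and 12.8% lower and 19.3% higher in old liver. Since the members were taken as chosen by this contrast, nothing is read from their count beside these shares. With upper-quartile scaling in place of TMM the higher calls made up 51.4% and 46.0% of all diet calls in young and old liver, against 68.7% and 60.1%. The summed Cyp3a level (without Cyp3a41b) was 2764 ± 219 CPM in young ND (SD, n = 4), 3785 ± 935 in old ND (n = 5), 977 ± 103 in young HFD (n = 5) and 957 ± 297 in old HFD (n = 4). The sum was 2.83-fold lower on HFD in young and 3.96-fold lower in old liver, with no overlap.

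The makeup of the family differed between the tables as well. On ND, Cyp3a11 supplied 68.1% to 75.8% of the Cyp3a counts in each library, Cyp3a25 18.7% to 24.2% and Cyp3a13 4.24% to 7.06%. On HFD, Cyp3a11 supplied 24.1% to 64.6% in 8 libraries and 4.87% in old HFD replicate 4, where Cyp3a13 supplied 62.5%. Per kilobase of exon, the Cyp3a11 level was above that of Cyp3a25 in 9 of 9 ND libraries and in 4 of 9 HFD libraries. The order of mean levels per kilobase in young ND was Cyp3a11 (969 CPM per kb), Cyp3a25 (300), Cyp3a13 (61.0) and Cyp3a59 (7.26), with the other 3 members below 0.1. In young HFD, Cyp3a25 (197 ± 18.0 CPM per kb, SD, n = 5) and Cyp3a11 (189 ± 52.0) did not differ beyond their spread, and Cyp3a13 (54.6), Cyp3a59 (12.0), Cyp3a41a (3.29), Cyp3a44 (3.09) and Cyp3a16 (0.181) followed. In old ND the order was that of young ND down to Cyp3a59, with Cyp3a11 at 1357 ± 353 CPM per kb (SD, n = 5), Cyp3a25 at 398 ± 101, Cyp3a13 at 67.7 ± 13.3 and Cyp3a59 at 14.5 ± 4.84. In old HFD, Cyp3a11 (166 ± 180, SD, n = 4), Cyp3a25 (165 ± 61.3) and Cyp3a13 (85.4 ± 36.9) did not differ beyond their spread. Within libraries, Cyp3a25 lay above Cyp3a11 in replicates 1 (199 against 104), 2 (227 against 116) and 4 (88.8 against 15.2). It lay below Cyp3a11 in replicate 3 (144 against 427). Without old HFD replicate 4, Cyp3a25 was at 144 to 227 CPM per kb and Cyp3a13 at 47.3 to 85.5, without overlap.

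**Figure D4:**
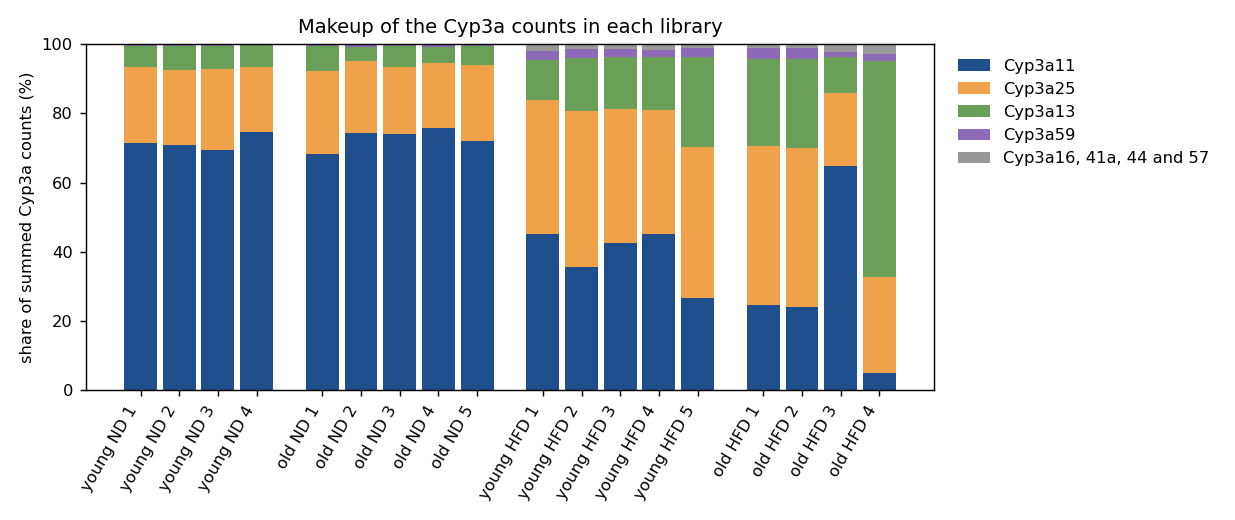
Share of the summed Cyp3a counts (percent, Cyp3a41b left out) supplied by each gene, 1 bar per library. Cyp3a11 takes 68.1% to 75.8% of each ND bar, and less than that in each HFD bar, down to 4.87% in old HFD replicate 4.

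Whether age moved these genes was asked within each diet, where both groups share a table. Of the 6 members that passed the low-count filter, Cyp3a41a and Cyp3a44 passed through the HFD libraries alone and had at most 9 counts in any ND library, so they could hardly be called on ND. Of the other 4, 1 was called higher in old ND liver, beside 6.89% of all genes tested, and 0 were called lower, beside 4.52%. The called member was Cyp3a59, whose mean rose 1.99-fold from 14.4 ± 4.61 CPM (SD, n = 4) to 28.7 ± 9.60 CPM (n = 5), a log2 change of 0.99 (SE 0.28, adjusted p = 0.032, edgeR). Of the old ND libraries 4 of 5 lay above all young ND libraries. The adjusted p of Cyp3a59 ran from 0.00356 to 0.106 over 27 alternative settings, and the call was kept in 19. It was lost without young ND replicate 1 (adjusted p = 0.0605), 2 (0.0836) or 4 (0.106) and without old ND replicate 2 (0.0512) or 4 (0.0671). In old ND liver 3 of 6 Kupffer cell and macrophage markers, 2 of 4 B cell markers, 1 of 5 T cell markers and 2 of 6 hepatocyte markers were called higher too, and 0 of these lower. The hepatocyte markers summed to 92554 to 121890 CPM in old ND and 75781 to 87164 CPM in young ND, without overlap, and the Kupffer cell and macrophage markers to 259 to 357 and 194 to 324 CPM. Their part in the result was not tested. The relative Cyp3a25 had a log2 difference of 0.41 (SE 0.22, adjusted p = 0.233) and did not pass the test. The old ND libraries held 2.58 to 5.18 counts of Cyp3a59 per 100 of Cyp3a25, and the young ND libraries 1.89 to 2.82.

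Cyp3a11 had a log2 difference of 0.49 between old and young ND liver (SE 0.56, adjusted p = 0.610), with 4 of 5 old libraries above all young ones and 1 below them. Cyp3a13 had one of 0.15 (SE 0.24, adjusted p = 0.718). Old ND replicate 5 held the highest Cyp3a11, Cyp3a25 and Cyp3a13 of the ND libraries, and without it the differences were 0.38, 0.27 and 0.03, and that of Cyp3a59 was 0.94 (adjusted p = 0.0462). Cyp3a44 (0.84, SE 0.95) and Cyp3a41a (0.61, SE 1.58) rest on at most 9 counts per library. The value of Cyp3a41a was 0.21 without young ND replicate 4 and 1.10 without young ND replicate 2.

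On HFD 0 of the 6 members were called in either direction by edgeR, beside 11.6% of genes called higher and 6.51% called lower in old liver. At an unadjusted p under 0.05 there were 2, Cyp3a13 and Cyp3a41a, beside 4386 of all 14275 genes tested. DESeq2 and limma voom each called 1, beside 2992 and 2465 of all genes. Cyp3a13 had the lowest adjusted p, at 251 ± 108 CPM in old (SD, n = 4) and 161 ± 43.3 in young HFD liver (n = 5), a log2 difference of 0.64 (SE 0.23, adjusted p = 0.0678). Over 27 alternatives its adjusted p ran from 0.013 to 0.319 and it was called in 5. Markers of immune cells moved with age too: 4 of 6 Kupffer cell and macrophage, 4 of 5 T cell, 3 of 4 B cell, 3 of 4 neutrophil and 2 of 5 cholangiocyte markers were called higher in old HFD liver, and 0 of these lower. Of the 6 hepatocyte markers 2 were called lower and 1 higher. The neutrophil and cholangiocyte sums were highest in old HFD replicate 4. The neutrophil sum reached 195 CPM there, with medians of 4.97 CPM in old HFD and 2.67 CPM in young HFD. The part of all these markers in the result was not tested. Markers of small intestine, where Cyp3a13 is also made, summed to 118 to 151 CPM in young HFD and to 15.0 to 97.5 CPM in old HFD (median 86.3), lowest in replicate 4, and 0 of the 2 tested were called. Their part was not tested either. Without old HFD replicate 4 the difference was 0.34 (adjusted p = 0.319), without old HFD replicate 3 it was 0.84 (0.013), and without young HFD replicate 5 it was 0.81 (0.0241).

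The other members spread widely in old HFD liver. Cyp3a11 had a log2 difference of -0.19 (SE 0.56, adjusted p = 0.860), which was 0.20 without old HFD replicate 4 and -1.27 without old HFD replicate 3. Cyp3a25 had one of -0.26 (SE 0.22, adjusted p = 0.454), which was -0.04 (adjusted p = 0.915) without old HFD replicate 4. Cyp3a59 had one of -0.05 (SE 0.27, adjusted p = 0.931), which was 0.14 (adjusted p = 0.797) without that library. Cyp3a41a had one of 0.66 (SE 0.31, adjusted p = 0.155), which was 0.90 (adjusted p = 0.0344) without old HFD replicate 2, 0.33 (0.527) without replicate 3, 0.46 (0.401) without replicate 4 and 0.096 (0.854) with voom. Cyp3a44 had one of -0.09 (SE 0.42, adjusted p = 0.912), which was -0.99 (adjusted p = 0.0448) without old HFD replicate 3 and 0.21 (adjusted p = 0.799) without replicate 4.

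**Figure D5:**
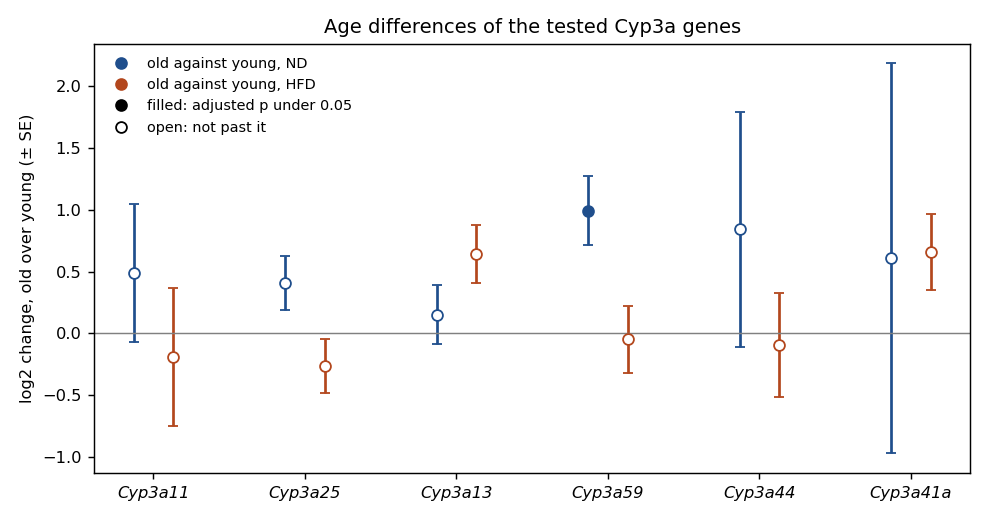
Log2 change from young to old liver of the 6 tested members, on ND and on HFD, with bars of 1 SE and filled points for adjusted p under 0.05 (edgeR). Only Cyp3a59 on ND is filled, at 0.99, and the errors of Cyp3a44 and Cyp3a41a on ND are wide.

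The test of whether age acted differently on the 2 diets called 0 of the 4 members with more than a few ND counts, beside 0.126% (18) of all genes tested. At an unadjusted p under 0.05 there were 2, Cyp3a59 and Cyp3a25, beside 1662 of all 14275 genes tested. DESeq2 and limma voom called 0, beside 212 and 87 of all genes. The difference between the age effects (HFD minus ND) was -1.04 on the log2 scale for Cyp3a59 (SE 0.39, adjusted p = 0.314) and -0.67 for Cyp3a25 (SE 0.31, adjusted p = 0.415). So the age call of Cyp3a59 on ND and its absence on HFD were not shown to differ.

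Once each library was centred on its group, the members varied together in patterns that differed by gene. These are correlations of log2 CPM across libraries, given as a description. Over the 9 HFD libraries Cyp3a25 and Cyp3a59 had an r of 0.98 (Spearman 0.98), Cyp3a11 and Cyp3a44 0.90 (0.95) and Cyp3a41a and Cyp3a41b 0.97 (0.97). These pairs share sequence as well as library and depth. Cyp3a11 and Cyp3a41a had an r of 0.06 (0.25) over the 9 HFD libraries and of 0.98 over the 8 without old HFD replicate 4, a comparison chosen after the data were seen. Cyp3a11 and Cyp3a13 went opposite ways on HFD (r -0.88, Spearman -0.63, or r -0.80 without that library), and in the 9 ND libraries they had an r of 0.46 (0.13).

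The genes outside the family whose deviations followed a member most closely over 18 libraries, among 10313 compared, were Oraov1, Anxa4 and Palmd for Cyp3a11, with r of 0.92, 0.89 and 0.88. Their Spearman values were only 0.55, 0.46 and 0.55, and r was 0.81, 0.80 and 0.71 without old HFD replicate 4. The values that follow are Pearson's r. For Cyp3a25 they were Mapk15 (0.94), Tnfaip8l1 (0.94) and Tmem183a (0.93). For Cyp3a13 they were the endocytic receptor Cd302 (0.96), the transferrin receptor Tfr2 (0.95) and vitronectin, Vtn (0.95). For Cyp3a59 they were Cyp4a32 (0.88), Rab43 (0.87) and Bag4 (0.86). Cyp3a44 was followed by Cstb (0.89), Apoc4-apoc2 (0.88) and Anxa4 (0.86), and Cyp3a41a by Rc3h2 (0.90), Cd2ap (0.79) and Ccl9 (0.78).

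Counts of called genes in the lists that follow stand beside these shares of all genes tested: on HFD against ND 6.29% were called lower and 13.8% higher in young liver, and 12.8% and 19.3% in old liver. In old against young liver 4.52% were called lower and 6.89% higher on ND, and 6.51% and 11.6% on HFD. Cell type markers moved with diet as well. In old liver 3 of 6 Kupffer cell and macrophage, 2 of 4 neutrophil and 1 of 5 cholangiocyte markers were called higher, 2 of 5 endothelial markers lower, and 2 of 6 hepatocyte markers lower and 1 higher. The neutrophil sum was raised in old HFD replicate 4 alone (195 CPM), with medians of 4.97 CPM in old HFD and 4.60 CPM in old ND. In young liver 2 of 5 stellate and 2 of 6 hepatocyte markers were called higher and 1 of 5 endothelial markers lower. Their part in the list counts was not tested. The list counts come from all libraries. Without old HFD replicate 4, 1309 of all genes were called lower and 2518 higher with diet in old liver, against 1824 and 2753 with it. Of 17 listed regulators of Cyp3a transcription, 16 were tested. Between diets edgeR called 0 in young liver, where the lowest adjusted p was 0.122, and 1 higher and 1 lower in old liver. The median log2 diet difference of the list was -0.06 in young and -0.07 in old liver, beside 0.00 and 0.02 over all genes. Nr1i2, the gene of PXR, had mean levels of 78.3 CPM in young ND, 76.8 in old ND, 70.8 in young HFD and 61.4 in old HFD. Nr1i2, Nr1i3 and Por are named for their roles, after their values were seen. The log2 diet difference of Nr1i2 was -0.14 (adjusted p = 0.503) in young and -0.32 (adjusted p = 0.0708) in old liver. Nr1i3, the gene of CAR, had differences of 0.21 (adjusted p = 0.619) and -0.05 (adjusted p = 0.905). In old liver Cebpa, a hepatocyte transcription factor, was lower on HFD (-0.36, adjusted p = 0.0042) and the dioxin receptor Ahr was higher (0.47, adjusted p = 0.00573). With age, Ncoa1 fell on ND (-0.24, adjusted p = 0.0292), and Ppara (-0.52, adjusted p = 0.0391) and Cebpa (-0.28, adjusted p = 0.0327) fell on HFD.

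Other targets of PXR and CAR were followed as a list of 33 genes, of which 29 were tested. On HFD 7 were called lower and 2 higher in young liver, and 10 lower and 3 higher in old liver, with median log2 differences of -0.26 and -0.36. Cyp2b10, the classic CAR target, went from 7.31 ± 2.11 CPM (SD, n = 4) to 0.462 ± 0.295 (n = 5) in young liver, a log2 change of -4.03 (adjusted p = 6.15e-06, edgeR). In old liver its change was -4.81 (adjusted p = 6.72e-06). Cyp2c55 changed by -2.77 in young and -2.46 in old liver. The carboxylesterase Ces2a changed by -2.21 in old liver, from 330 ± 33.9 CPM (n = 5) to 71.1 ± 38.8 (n = 4). The glutathione transferase Gsta1 went the other way, at 3.25 and 4.95. Between ages 2 of the 29 were called higher and 1 lower on ND, and 2 higher and 1 lower on HFD. Gadd45b was higher in old liver on both diets, by 1.77 and 1.04 on the log2 scale.

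Partners of P450 enzymes (14 listed and tested) were called lower on HFD in 3 cases and higher in 1 in young liver, and in 6 and 0 cases in old liver. Cyb5b, a cytochrome b5, changed by -0.54 in young and -0.63 in old liver, and Fech, the enzyme that inserts iron to form haem, by -0.51 in old liver (adjusted p = 0.000123). Por, the reductase, had 178 ± 36.1 CPM in young ND and 204 ± 34.3 in young HFD and was not called in any contrast. Other drug-metabolising P450 genes (43 tested) were called lower in 11 and higher in 11 cases in young liver, and 13 and 12 in old liver. Among the higher ones, Cyp2d11 (7.04 in young liver), Cyp2b13 (6.17) and Cyp2d12 (5.79) belong to subfamilies of close relatives as well. Phase II conjugating enzymes (49 tested) were lower in 8 and higher in 6 cases in young liver, and 23 and 7 in old liver. With age, 2 partners were called lower and 1 higher on ND, and 4 and 1 on HFD. Of the other P450 genes 7 were called lower and 1 higher with age on ND, and 10 and 3 on HFD. Of the phase II enzymes 3 were called lower and 1 higher with age on ND, and 2 and 1 on HFD.

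Because 2 members are forms of female liver, sex-biased genes were also counted. Of 15 tested genes with higher expression in female liver, 6 were called higher on HFD in young and 8 in old liver, and 0 lower, with median log2 differences of 1.03 and 0.49. Cyp2b9 rose from 10.2 ± 5.24 CPM (SD, n = 4) to 177 ± 51.7 (n = 5) in young liver (log2 change 4.10, adjusted p = 0.000776, edgeR), and Cyp2a4 from 1.27 ± 0.278 to 35.1 ± 11.8 (4.78, adjusted p = 0.000102). Of 17 tested male-biased genes, 7 were lower and 2 higher in young liver, and 6 lower and 2 higher in old liver. Elovl3, an enzyme that lengthens fatty acids, went from 576 ± 105 to 166 ± 61.5 CPM in young liver (log2 change -1.79, adjusted p = 0.00038). The largest change of the male-biased list was a rise, at 6.10 in young and 5.40 in old liver, and its deepest falls were -2.35 and -3.67. These counts share the limit that diet and table cannot be told apart. With age on ND, 3 male-biased genes were called lower and 0 higher, and 2 female-biased genes higher and 0 lower. With age on HFD, 1 male-biased gene was called in each direction and 2 female-biased genes in each direction.

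Cyp3a11 is made mostly by hepatocytes around the central vein, so genes of that zone were followed too. Of 16 pericentral genes tested, 3 were called lower and 0 higher on HFD in young liver, and 3 lower and 5 higher in old liver. Cyp2c29 (-1.67 in young, -1.85 in old liver) and Cyp1a2 (-1.91 and -1.62) were among the lower ones, and Glul, glutamine synthetase, was higher in old liver (0.61, adjusted p = 0.0101). Of 14 periportal genes, 8 were lower and 2 higher in young liver, and 7 lower and 1 higher in old liver. With age, 7 pericentral genes were called lower and 0 higher on ND, beside 4.52% and 6.89% of all genes, and 0 lower and 2 higher on HFD, beside 6.51% and 11.6%. The ammonium transporter gene Rhbg changed by -1.33 on ND and 0.97 on HFD, and was the 1 pericentral gene whose age effects differed between diets (2.30, adjusted p = 0.011, edgeR).

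The start of each gene was read from RefSeq promoters (GRCm38.p6), which gave an entry for each of the 9 Cyp3a symbols. The 250 bases before the start are printed for 4 members, 1 abundant and 1 rare form of each sequence group, 5′ to 3′ on the strand of the gene. Capitals mark AGGTCA and AGTTCA, the core words that nuclear receptors such as PXR can bind, and TATAAA, each on either strand.
Cyp3a11, chr5:145879855-145880104, minus strand: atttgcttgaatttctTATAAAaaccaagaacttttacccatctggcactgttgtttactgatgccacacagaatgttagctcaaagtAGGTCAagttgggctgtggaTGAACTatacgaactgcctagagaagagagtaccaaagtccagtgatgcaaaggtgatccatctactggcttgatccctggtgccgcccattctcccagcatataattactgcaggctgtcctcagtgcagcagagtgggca
Cyp3a44, chr5:145805875-145806124, minus strand: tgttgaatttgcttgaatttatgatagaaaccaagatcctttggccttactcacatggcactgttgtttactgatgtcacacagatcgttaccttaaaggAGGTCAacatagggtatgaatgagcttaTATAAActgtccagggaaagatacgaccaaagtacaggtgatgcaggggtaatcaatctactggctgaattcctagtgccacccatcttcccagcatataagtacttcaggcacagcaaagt
Cyp3a25, chr5:146009618-146009867, minus strand: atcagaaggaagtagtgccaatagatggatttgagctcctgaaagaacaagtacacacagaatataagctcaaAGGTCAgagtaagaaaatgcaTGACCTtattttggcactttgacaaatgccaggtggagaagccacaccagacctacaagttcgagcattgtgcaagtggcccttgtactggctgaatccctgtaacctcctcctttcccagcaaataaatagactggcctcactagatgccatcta
Cyp3a59, chr5:146079008-146079257, plus strand: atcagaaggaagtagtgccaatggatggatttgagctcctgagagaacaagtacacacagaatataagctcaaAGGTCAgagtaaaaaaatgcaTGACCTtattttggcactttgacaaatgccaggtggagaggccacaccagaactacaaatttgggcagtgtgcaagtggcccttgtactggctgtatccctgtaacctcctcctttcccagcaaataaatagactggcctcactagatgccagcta

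The Cyp3a25 and Cyp3a59 stretches were 95.6% identical and those of Cyp3a11 and Cyp3a44 76.0%. AGGTCA occurred 2 times in the Cyp3a25 and Cyp3a59 stretches and 1 time in those of Cyp3a11 and Cyp3a44, and 14.0% of 32851 promoter stretches of this length held it. AGTTCA occurred in the Cyp3a11 and Cyp3a41a stretches, and in 11.8% of all. TATAAA occurred in the stretches of Cyp3a11, Cyp3a16, Cyp3a41a and Cyp3a44, and in 12.4% of all. The Cyp3a13 stretch held none of these 3 words. Pairs of these core words as direct repeats 3 or 4 bases apart, or as everted repeats 6 or 8 bases apart, were in none of the Cyp3a stretches and in at most 8 of 32851. These matches describe the letters of this window only.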

How the data were processed

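A total of 18 poly(A) libraries of whole liver were deposited as 2 tables of raw counts per gene, 1 for each diet. Per the submitters' processing notes and the file headers, the authors aligned reads with STAR to mm10 (GRCm38) and deposited counts of exonic reads from HOMER, condensing each gene to 1 row, without a strand option in the HFD table and on the plus strand in the ND table. The study's methods name HTSeq for counting, whereas the headers name HOMER. The tables place 1168 symbols at other coordinates or transcripts, Cyp3a41a among them. Total counts were 20253719 to 36427856 per library.

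Genes were kept by filterByExpr (14275 of 24537 symbols, 6 of the 7 members), scaled by TMM and tested with edgeR 4.0.16 (quasi-likelihood, robust, 1 fit of 4 groups, two-sided, Benjamini-Hochberg, called at adjusted p under 0.05) in R 4.3.3. CPM are TMM-scaled, and fold changes of means are ratios of mean CPM. The fit was tested on simulated data. Other settings tried were DESeq2 (1.42.0), voom with quality weights (limma 3.58.1), other scalings and filters, the compared groups alone, a replicate block, and leaving out each library. Columns of other samples numbered 0. Sequences came from GENCODE M21 and RefSeq (Biopython 1.88).

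The members and gene lists were chosen with earlier results of these data known. Named genes are all Cyp3a symbols, up to 4 called genes per list and contrast by size of change, and for each tested member the 3 genes with the highest Pearson correlation of group-centred log2 CPM, among tested genes averaging 2 log2 CPM or more. Nr1i2, Nr1i3 and Por fall outside this rule and were named after their values were seen.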

Additional observations from a re-analysis of the deposited data

Results flagged for a closer look

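Within the 4 groups, 28 sets of values of the 7 members were searched for a library far from the others, by a rule (Dixon's test at the 95% level) that chance meets in about 5% of sets, and 2 met it. Cyp3a13 in old ND replicate 5 measured 268.592 CPM, against 177 to 189 CPM in the other 4 old ND libraries. Cyp3a41a in old ND replicate 3 measured 0 CPM, against 0.0421 to 0.0480 in the others, a gap of 1 count.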

How the results depend on the processing

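The diet differences of Cyp3a11 and Cyp3a25 kept their direction under every alternative run. Leaving out 1 library at a time gave 666 to 2298 genes called with age on ND (1629 in the fit reported; 801, 908 and 666 without young ND replicates 2, 3 and 4, and 772 without old ND replicate 3), and 6 to 44 for the interaction (18 in the fit reported; 44 without old ND replicate 5, 38 without old HFD replicate 4, and 6 to 11 without young ND replicates 1, 2 or 3, young HFD replicates 1, 3, 4 or 5 or old ND replicates 2 or 4). It gave 0 to 1 Cyp3a genes called with age on ND and 0 to 2 with age on HFD. By log2 difference it gave -1.27 to 0.20 for Cyp3a11, -0.99 to 0.21 for Cyp3a44 and -0.25 to 0.14 for Cyp3a59 with age on HFD, and -0.43 to 0.45 for the interaction of Cyp3a41a.

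With voom, 2972 genes were called with age on ND, 4679 for diet in young liver and 87 for the interaction, and 1 Cyp3a gene with age on HFD. There Cyp3a59 with age on HFD was 0.15 and the interaction of Cyp3a41a -0.45. With DESeq2, 212 genes were called for the interaction, 1 Cyp3a gene with age on HFD, and the interaction of Cyp3a41a was -0.059. The compared groups alone gave 4371 calls for diet in young and 2671 in old liver, and at least 10 counts in every library gave 1887 in young liver. Cyp3a59 was no longer called with age on ND (0 Cyp3a genes called) without the filter (adjusted p = 0.0501), with the compared groups alone (0.0501) or with the replicate block. The causes of these shifts were not tested.

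Replicate numbers did not pair the samples: deviations of same-numbered libraries correlated at -0.18 to 0.25 (median -0.02), over 0.1 in 5 of 25 pairs. The replicate block gave 1371 and 2156 calls with age on ND and HFD, 2786 and 4103 with diet in young and old liver, and 0 for the interaction. With it 1 Cyp3a gene was called with age on HFD, Cyp3a13 with age on ND was -0.00096, and the interaction of Cyp3a41a was -0.37. The ND values of Cyp3a16, Cyp3a41a and Cyp3a44 rest on 0 to 9 counts per library and are imprecise.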
